A study of Mus musculus with 20 samples.

Results

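Binding of Oct4 (Pou5f1) in F9 embryonal carcinoma cells was set against its binding in mouse embryonic stem (ES) cells, both undifferentiated. The comparison used 3 peak lists of the 20 samples in the series. One list came from untreated F9 cells, immunoprecipitated with an Oct4 antibody alone. The other 2, replicates A and B, came from KH2 ES cells that received doxycycline at 1 µg/ml to express a V5-tagged Sox2, the Sox2 line. KH2 is an ES line built for inducible expression of a transgene, and the labels of its Oct4 libraries name an Oct4 and a V5 antibody. The labels do not say whether these were used together, in turn or as alternatives. ES medium held serum and leukaemia inhibitory factor, whereas for F9 cells only serum is named. Cell line, induced Sox2, medium and the antibodies named therefore change together, and their parts cannot be told apart. The F9 library had no replicate, and nothing says that A and B came from separate cultures. The cell types were not checked against marker genes, since the lists hold positions only.

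Oct4 is a POU-domain transcription factor that keeps cells pluripotent. In ES cells it often binds next to Sox2, an HMG-box factor, on composite Sox-Oct elements of enhancers. F9 cells derive from a mouse teratocarcinoma, express Oct4, and turn into primitive endoderm-like cells under retinoic acid (RA).

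The lists held 64582 peaks in F9 cells, and 63038 (A) and 32877 (B) in ES cells. Each peak has a score from the authors' peak caller, which ranks peaks within a list. Read depth was unknown, so the 32877 strongest peaks of each list were compared, and a peak counted as common where intervals shared at least 1 bp. Lists of one length still differed in strength. The last peak taken scored 116.43 in F9 cells, with 116.42 for the next one left out. In ES replicate A these scores were 153.63 and 153.62, and in replicate B the list ended at 50. The peaks covered 35458 kb in F9 cells, 38240 kb in ES replicate A and 21173 kb in ES replicate B.

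More F9 peaks met a peak of both ES replicates than of neither, and strong F9 peaks did so more often than weak ones. An F9 peak was called shared where both ES replicates had a peak, and F9-only where neither had. Of the 32877 F9 peaks, 17300 were shared (52.6%, exact 95% interval 52.1 to 53.2) and 10078 were F9-only (30.7%, 30.2 to 31.2). The remaining 5499 (16.7%) met 1 replicate, 3539 of them A and 1960 of them B. On the ES side, 24012 merged sites held a peak of each replicate. Of these, 17046 had an F9 peak (71.0%) and 6966 had none (29.0%, 28.4 to 29.6), the ES-only sites. F9 peaks moved by 10 kb to either side met both ES replicates in 5.34% of cases, and ES sites so moved met an F9 peak in 8.73%. Intervals cover counting error only.

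The 2 cell lines differed more than the ES replicates did. Of the F9 peaks, 63.4% overlapped a peak of ES replicate A and 58.6% one of replicate B. Of the peaks of A, 73.2% overlapped one of B, and of the peaks of B, 80.1% overlapped one of A. No test was run over the libraries, since an exact permutation test of 1 library against 2 cannot give a p below 0.333. Rank order was also closer within ES cells. Over the 17046 shared sites Spearman's rho was 0.45 between F9 and A, 0.39 between F9 and B, and 0.66 between A and B, given as a description, since these sites share a genome and their libraries.

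**Figure D1:**
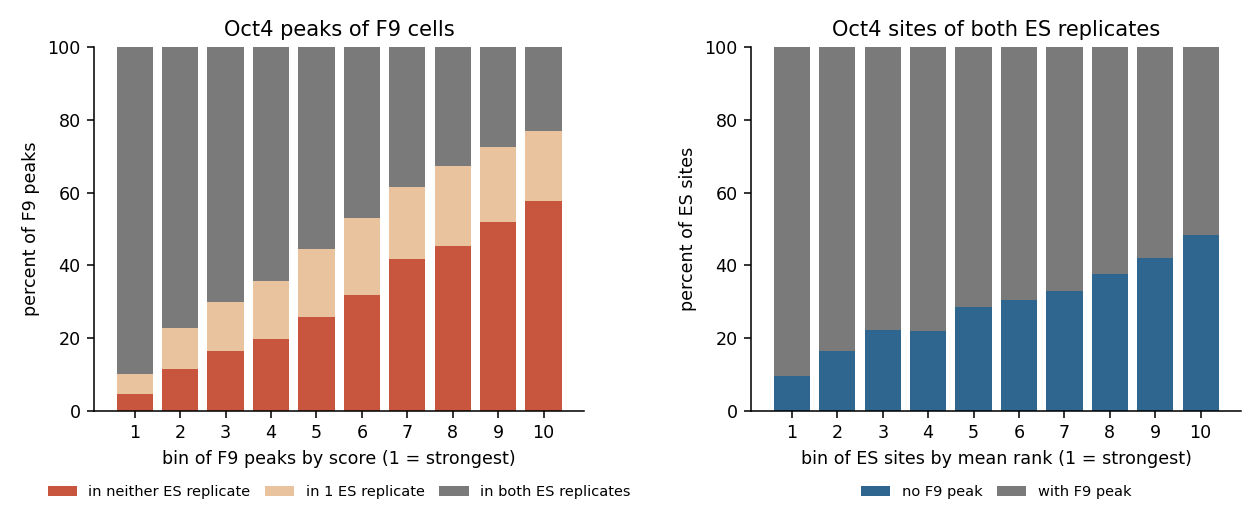
Classes of Oct4 sites by strength, in 10 equal bins of the F9 peaks by score (left) and of the ES sites by mean rank (right), with bars as percent of each bin. F9-only peaks make up 4.50% of the strongest bin and 57.8% of the weakest, and ES-only sites 9.58% and 48.4%.

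Strength separated the classes within each list, as seen in 10 bins of equal size. In the strongest bin of F9 peaks, with scores of 772 and above, 90.1% were shared and 4.50% F9-only. In the weakest bin 23.1% were shared and 57.8% F9-only. ES sites showed the same order, with 9.58% ES-only sites in the strongest bin and 48.4% in the weakest. The median F9 score was 174 at F9-only and 339 at shared peaks, and median widths were 792 and 1056 bp. These shares set strong peaks of one line against the 32877 strongest of the other. With the 5000 strongest peaks on both sides, 36.5% of F9 peaks were in both ES replicates and 46.3% were in neither. Of the 3205 ES sites at this cut, 43.2% lacked an F9 peak. A strong peak of one line was thus often not among the strongest of the other. The ES replicates differed from each other here too, since 5000 peaks of each gave these 3205 common sites. Against the 32877 strongest, among the 1000 strongest F9 peaks, 968 were shared and 17 F9-only. Among 701 ES sites ranked within the first 1000 of both replicates, 664 had an F9 peak and 37 had none.

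Absence from a list of the strongest peaks was often not absence from the whole list. Of the F9-only peaks, 4373 (43.4%) met a weaker peak of ES replicate A, with a median score of 91.7. Of the ES-only sites, 2994 (43.0%) met a weaker F9 peak, with a median score of 81.9. With whole lists searched, 5705 F9 peaks (17.4%) met no ES peak and 3972 ES sites (16.5%) no F9 peak. The share of F9 peaks found in both ES replicates was 31.2% where midpoints had to lie within 200 bp.

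The regions shared most strongly had scores at or near the top of all 3 lists. They are named by position in build mm9, without gene names, because the gene tables used here belong to another build. First by mean rank was chromosome 17 at 35640528 to 35645120, a merged region of 4593 bp. It scored 3100 in F9 cells, and 3100 and 3100 in ES replicates A and B. Its Sox2 V5 scores in the Sox2 line were 1270 and 974.5, and Oct4 peaks lay there in each of the other ES lines as well. The region on chromosome 1 at 37042048 to 37046052 scored 3100 in F9 cells, and 3100 and 2528 in ES cells, with Sox2 V5 scores of 2203 and 3100. On chromosome 2 at 51926488 to 51929143 the scores were 3100 in F9 cells, and 3100 and 3069 in ES cells. All 8 of the strongest shared regions had Oct4 peaks in the other 5 ES lists and in F9+RA cells, and Sox2 V5 peaks in both replicates. Of all 17046 shared ES sites, 70.0% had Oct4 peaks in all 5 lists and 94.6% in F9+RA cells. Sox2 V5 peaks of both replicates lay at 47.1% of them.

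The strongest F9-only regions, with no peak in either whole ES list, lay lower in the F9 list, between ranks 582 and 1199. The first, on chromosome 9 at 123842809 to 123844806, scored 1880 in F9 cells and 1726 in F9+RA cells, where Sox17 scored 1825. None of the 7 ES Oct4 lists and neither Sox2 V5 list had a peak there. A wide region of 6572 bp on chromosome 12, at 112242170 to 112248741, scored 1870 in F9 and 2987 in F9+RA cells, and 77.0 in 1 ES list, Oct4 of the Sox17EK line, replicate A. On chromosome 6, at 127685208 to 127686173, the score was 1373 in F9 and 246 in F9+RA cells, with no ES Oct4 peak. All 8 regions had an Oct4 peak in F9+RA cells and no Sox2 V5 peak in ES cells, and the highest score in any ES Oct4 list was 356. Of all 5705 F9 peaks absent from both whole ES lists, 74.7% had an Oct4 peak in F9+RA cells. Sox2 V5 peaks lay at 2.37% (A) and 2.14% (B) of them.

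ES-only regions reached nearer to the top of their lists, though they had to be absent from 1 whole list and F9-only regions from 2. The strongest ES-only region, on chromosome 14 at 118814244 to 118816896, had no F9 peak and scored 3100 and 1955 in the Sox2 line. Both Sox2 V5 replicates scored 3100 there, and Oct4 scored 3100 and 2329 with induced Sox2KE, 1539 and 1013 with Sox17EK and 540.5 with Sox17. The score after RA in F9 cells was 67.95. On chromosome 6, at 55740535 to 55743064, there was no F9 peak, and Oct4 scores in the Sox2 line were 3100 and 1536. The Sox2 V5 scores at this region were 1798 and 1373. The region on chromosome 2 at 143982305 to 143983941 had no peak in F9 or F9+RA cells, and scores of 3100 and 1145 in the Sox2 line. Of the 8 strongest ES-only regions, 5 lay on chromosome 1 or 14, which held 15.1% and 8.06% of all ES sites absent from the whole F9 list. Of the 8 strongest F9-only regions, 1 lay on chromosome 1, 12, 14 or X, and of the 8 ES-only regions 5. These chromosomes held 1.97%, 9.51%, 1.65% and 4.46% of all F9-only peaks, in this order. Counts among 8 regions are too small to be read against such shares. Scores of 3100 are tied in these lists, and ties were ordered by peak width. Peaks scoring 3100 or more numbered 773 in ES replicate A, 5 in replicate B and 151 in F9 cells.

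Induced Sox2 of ES cells lay at few F9-only peaks and at most ES-only sites. Sox2 binding in F9 cells was not measured in this series. The V5 libraries of the Sox2 line, which show the induced Sox2, did not themselves enter the classes. The F9-only peaks had a Sox2 peak at 7.05% in replicate A and 5.51% in replicate B, against a background from moved sites of 4.36% and 4.01%. At the 5705 F9 peaks absent from both whole ES lists the shares were 2.37% and 2.14%, below their background of 4.32% and 4.13%. F9-only peaks were chosen for lacking a peak in ES libraries that name the V5 antibody, and the moved sites were not, so that the moved sites are no like reference for them. The part of that choice in their low share was not tested. Of the ES-only sites, 70.7% had Sox2 in replicate A and 66.2% in replicate B. At shared ES sites these shares were 58.8% (A) and 54.8% (B), and the background was 4.65% to 6.49% in the ES-only and shared classes.

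ES-only sites thus carried Sox2 more often than shared sites, by 11.6 ± 0.329 percentage points (SD over 2 Sox2 libraries). The difference had the same sign in each of 4 equal bins of the ES sites by mean rank. Sox2 shares in the strongest bin were 96.6% and 96.3% at ES-only sites, and 88.7% and 86.9% at shared sites. In the weakest bin they were 53.6% and 47.6% at ES-only sites, and 32.03% and 27.4% at shared sites. The sign turned, to -1.95 points, where ES sites were read from replicate B alone. With the 5000 strongest peaks of each list the difference was 0.32 points, and it was 6.65 points with replicate A alone, 7.09 points with midpoint matching and 17.9 points with absence from whole lists. ES Oct4 libraries name the V5 antibody, so that peaks of tagged Sox2 and of Oct4 in them cannot be told apart. Among the 7221 ES sites without a Sox2 V5 peak, 1513 (21.0%) lacked an F9 peak, a smaller share than the 29.0% of all ES sites. This follows from the higher Sox2 share at ES-only sites in the same counts, and tells nothing further about the antibody.

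**Figure D2:**
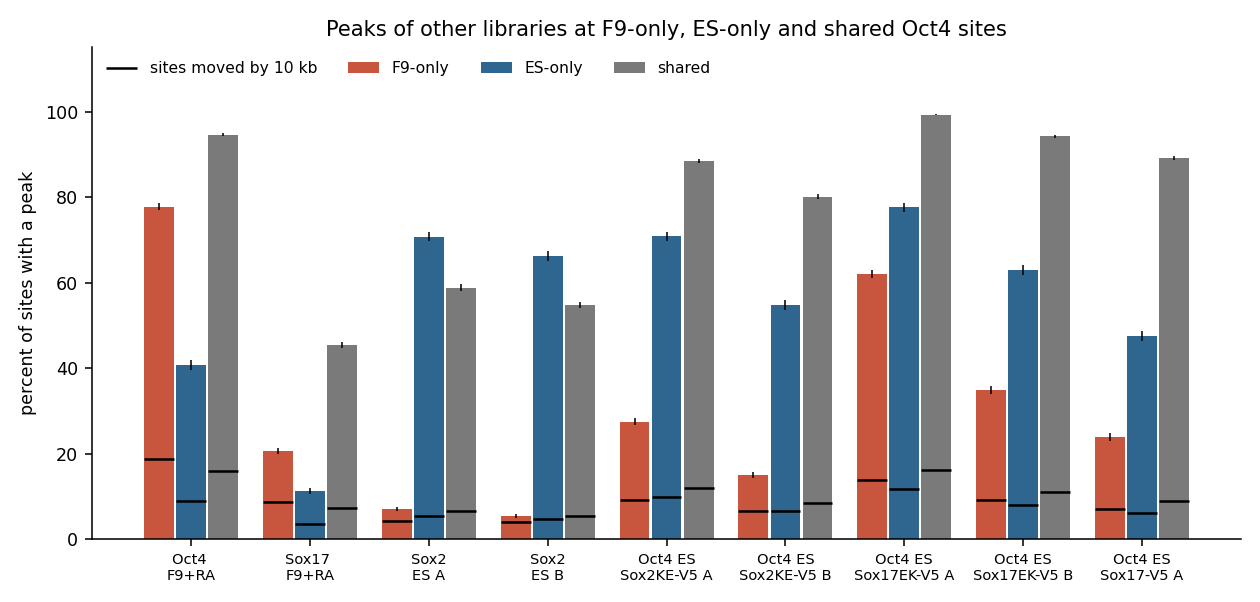
Percent of F9-only peaks, ES-only sites and shared ES sites with a peak in 9 other lists, with exact 95% intervals and black lines for sites moved by 10 kb. Sox2 V5 peaks are at 7.05% and 5.51% of F9-only peaks and at 70.7% and 66.2% of ES-only sites, and F9+RA Oct4 peaks at 77.8% of F9-only peaks.

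Oct4 lists outside the comparison were nearer to the lists of the same cell line and named antibodies, which cannot be told apart here. In F9+RA cells, F9 cells treated with RA at 1 µM, an Oct4 peak lay at 77.8% of F9-only peaks (background 18.7%), at 40.7% of ES-only sites (8.86%) and at 94.6% of shared ES sites (15.9%). In the other ES lines, which express Sox2KE, Sox17EK or Sox17 and whose labels name the same antibodies, F9-only peaks had an Oct4 peak at 15.1% to 62.0%. ES-only sites had one at 47.5% to 77.6% and shared sites at 80.1% to 99.2%, and in each of these 5 lists the ES-only share was above the F9-only share. These shares come from whole lists. The classes were chosen by presence in or absence from lists of the same cell lines and named antibodies, which favours this order. The part of that choice was not tested. With the 23924 strongest peaks of each list, F9+RA cells had a peak at 31.3% of F9-only peaks and 8.71% of ES-only sites, and the 5 ES lists at 6.03% to 13.5% and 33.8% to 47.4%. All 5 whole lists held a peak at 3.59% of F9-only peaks, 27.3% of ES-only sites and 70.0% of shared ES sites. No other ES list held a peak at 29.6% of F9-only peaks and 6.53% of ES-only sites. Of the 5705 F9 peaks absent from the whole lists of the Sox2 line, 2708 (47.5%) were in no ES Oct4 list at all, and 1885 (33.0%) were in addition found in F9+RA cells. Of the 3972 ES sites absent from the whole F9 list, 3074 (77.4%) were also absent from the F9+RA list, though this list is the longest, with 84196 peaks.

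The F9 list was farther from the Sox2 line than the Oct4 lists of the other ES lines. F9 peaks met both Sox2-line replicates in 52.6% and neither in 30.7% of cases. For the 5 other ES lists at the same length (1 of them with 32848 peaks) the shares in both were 55.5% to 60.7%, and the shares in neither 19.9% to 25.02%. The F9+RA list was farther still, with 47.5% in both and 37.6% in neither. Per the labels all ES lists come from KH2 cells and name the same 2 antibodies, whereas both F9-derived lists name Oct4 alone. No test was run over these lists.

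The 2 lines also spread their Oct4 peaks differently over the chromosomes. Chromosome 1 held 4.55% of F9 peaks, against 8.42% in each ES replicate, and chromosome 14 held 2.70%, against 4.71% (A) and 4.94% (B). Chromosome 12 held 5.86% of F9 peaks, against 3.91% and 3.96%. The X chromosome held 2.62% of F9 peaks, against 1.76% and 1.27% in ES replicates. F9 to ES ratios were 0.541 for chromosome 1, 0.560 for 14, 1.49 for 12 and 1.73 for X. The F9 share lay outside both ES replicates on 17 of 20 chromosomes. Only these 4, chromosomes 1, 14, 12 and X, were also over 25% above the ES mean, or below it by the same factor. Of the 4, 2 were higher (10.0% of chromosomes) and 2 lower (10.0%). On the other 16 the ratio ran from 0.855 (chromosome 8) to 1.16 (chromosome 4). ES replicates differed between themselves by a median of 1.04-fold and at most 1.39-fold, on X.

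**Figure D3:**
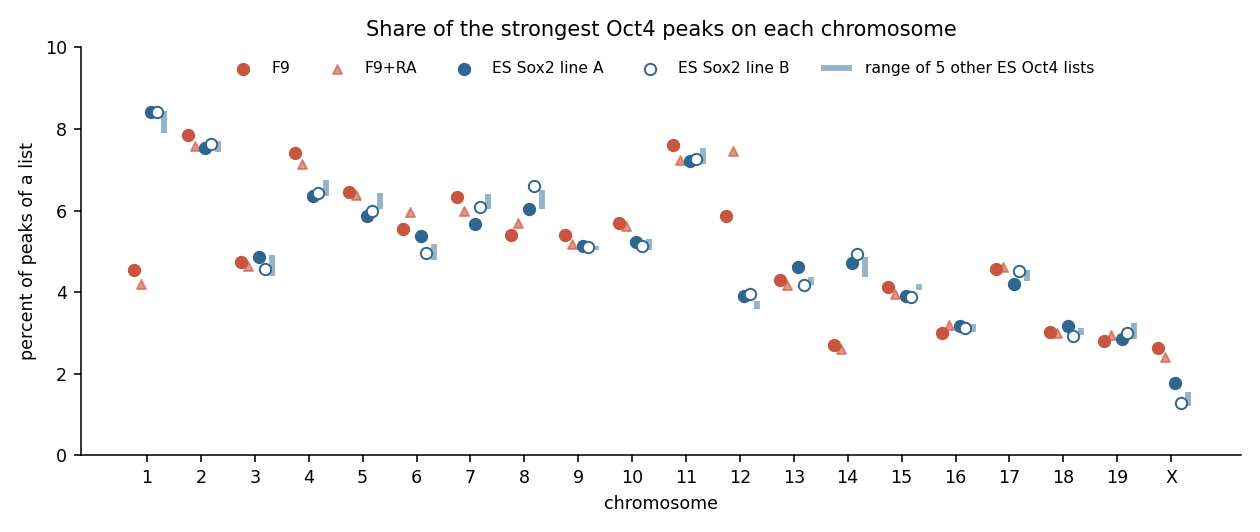
Percent of the 32877 strongest Oct4 peaks of each list on each chromosome, for F9 and F9+RA cells, both ES replicates of the Sox2 line, and the range of the 5 other ES Oct4 lists. F9 lies at 4.55% on chromosome 1, below all ES lists (7.90% to 8.43%), and at 5.86% on chromosome 12, above them (3.59% to 3.96%).

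The shares held across libraries that the comparison did not use. Over the 5 other ES Oct4 lists chromosome 1 held 7.90% to 8.43%, chromosome 14 held 4.38% to 4.86%, chromosome 12 held 3.59% to 3.79% and X held 1.21% to 1.54%. Oct4 in F9+RA cells lay on the side of F9 cells for each of these chromosomes, with 4.20%, 2.61%, 7.46% and 2.42% in the same order. Sox17 in F9+RA cells lay on this side too, with 3.14%, 2.38%, 10.5% and 2.49%. The shift was thus not seen for Oct4 alone. The whole Sox2 V5 lists of ES cells held 9.90%, 5.63%, 3.89% and 1.88% (A), and 9.51%, 5.48%, 3.82% and 1.70% (B). The parts of factor and cell line in these shares were not tested. The F9-derived lists come from the same cell line and are not independent samples of it. Among the 5000 strongest peaks 8 chromosomes passed this threshold, the same 4 further from 1 (chromosome 1 at 0.343, chromosome 12 at 2.23) and chromosomes 4, 6, 8 and 19 in addition.

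Some of these differences ran along whole chromosomes and others were local. The chromosomes were divided into windows of 10 Mb, and the 264 windows with at least 20 peaks, as the mean of F9 and ES cells, were compared. F9 cells were past 2-fold higher in 8 windows (3.03%) and past 2-fold lower in 16 (6.06%), outside both ES replicates in each. On chromosome 1 all 20 windows were below 1, from 0.387 to 0.871. On chromosome 14, 12 of 13 windows were below 1, and that from 90 to 100 Mb stood at 1.80, with 82 peaks in F9 cells, against 47 and 44 in ES cells.

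On chromosome 12 the excess lay at the distal end. The windows from 100 to 110 Mb and from 110 to 120 Mb held 517 and 392 F9 peaks, against 180 and 136 in ES replicate A and 190 and 159 in replicate B, ratios of 2.79 and 2.66. Without them the chromosome's ratio was 1.06. These windows held 63.4% of the F9-only peaks of chromosome 12. On X, 6 of 12 compared windows were past 2-fold higher, those from 90 to 110 Mb and from 130 to 170 Mb, with ratios of 2.12 to 2.79. The windows between them held too few peaks to be compared. That from 110 to 120 Mb had 27 F9 peaks, against 15 and 4 in ES cells. The next, from 120 to 130 Mb, had 16, against 4 and 1.

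Chromosomes 3, 6 and 8 held lower windows, though their totals did not pass the threshold for chromosomes. The end of chromosome 3, from 150 to 160 Mb, had 13 F9 peaks, against 67 and 55 in ES cells, the lowest ratio of all (0.213). The window before it stood at 0.331. On chromosome 6 the 4 windows from 50 to 90 Mb lay between 0.339 and 0.441, whereas others of the same chromosome reached 1.92. In each of the 24 windows past 2-fold, F9 and F9+RA cells lay on the same side of the range of the 5 other ES Oct4 lists.

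**Figure D4:**
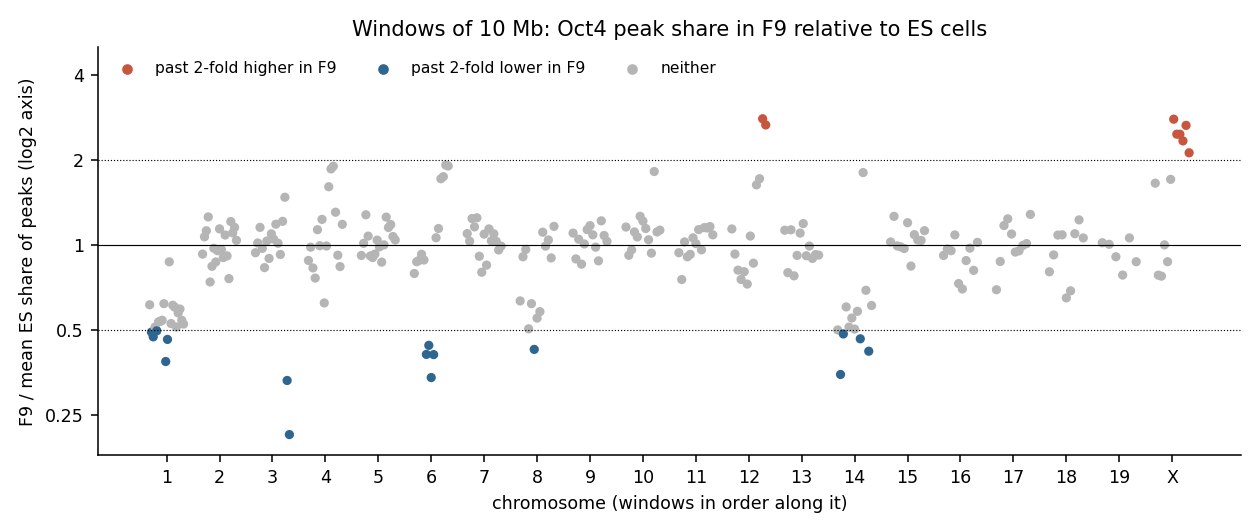
Ratio of the F9 to the mean ES share of Oct4 peaks in 264 windows of 10 Mb, in order along each chromosome, on a log2 axis with lines at 0.5, 1 and 2. All windows of chromosome 1 lie below 1, and 2 windows of chromosome 12 and 6 of X lie above 2.

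Line-specific sites followed the chromosome shares, in part by construction, since both come from counts of the same peaks. Chromosomes 1 and 14 had the fewest F9-only peaks, 13.3% and 18.7% of their F9 peaks, and the most ES-only sites, 46.2% and 48.3% of their ES sites. Chromosomes 12 and X had the most F9-only peaks, 49.7% and 52.1%, with ES-only shares of 24.6% and 22.7%. On the other 16 chromosomes F9-only shares ran from 24.97% to 39.1% and ES-only shares from 22.2% to 35.6%, the highest of each on chromosome 6. Over the genome these shares were 30.7% and 29.0%. Of the ES-only sites, 13.7% lay on chromosome 1, against 6.52% of shared ES sites. Chromosome 12 held 9.51% of F9-only peaks, against 4.12% of shared F9 peaks.

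Lists were also made equal within each chromosome, by taking on each the strongest peaks up to the smallest of the 3 counts. Equal counts bring the F9-only and ES-only shares of a chromosome near each other by construction. F9-only shares were then 28.5% on chromosome 1 and 32.1% on 14, and ES-only shares 29.8% and 34.5%. On chromosomes 12 and X the F9-only shares were 38.5% and 40.9%, and the ES-only shares 35.1% and 37.1%. On the other 16 chromosomes F9-only shares were then 25.4% to 37.6%, below those of 12 and X, and ES-only shares 24.2% to 37.4%. Over the whole genome the change was small, with 29.4% F9-only and 28.1% ES-only sites in these lists. The 24 windows past 2-fold held 10.2% of F9-only peaks and 10.9% of ES-only sites, beside 6.42% of all F9 peaks and 6.51% of all ES sites. The windows were picked by counts of the same peaks, so an excess of line-specific sites in them follows from that choice. In the 8 higher windows 64.8% of F9 peaks were F9-only and 14.9% of ES sites ES-only. In the 16 lower windows these shares were 15.1% and 59.2%. In the remaining windows 29.4% of F9 peaks were F9-only and 27.7% of ES sites ES-only.

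**Figure D5:**
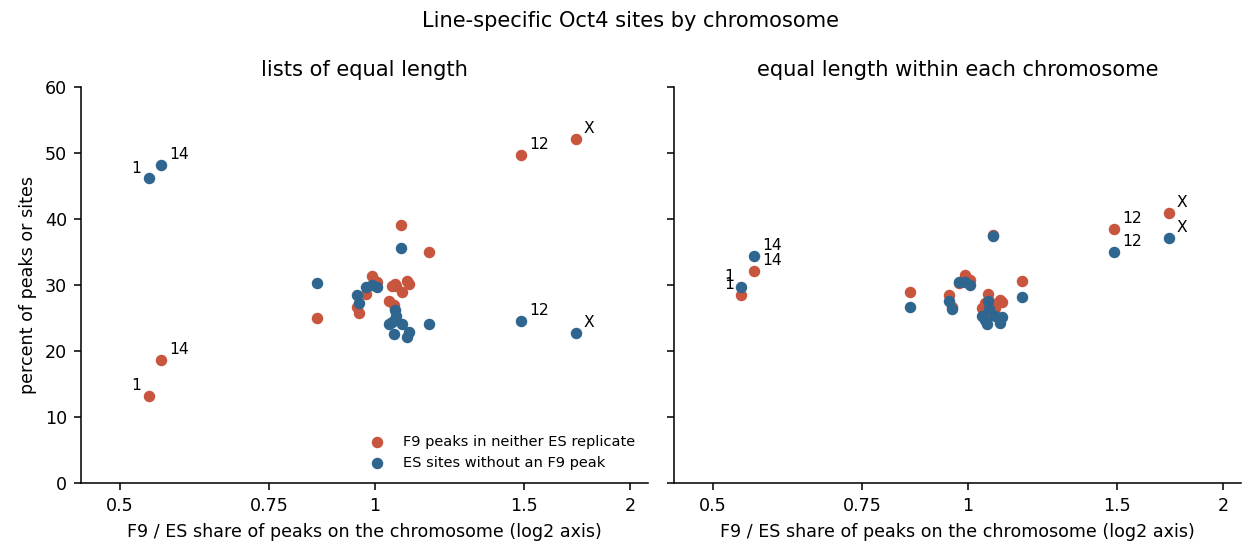
Percent of F9 peaks in neither ES replicate and of ES sites without an F9 peak on each chromosome, against the F9 to ES ratio of the chromosome's share of peaks (log2 axis), for lists of equal length (left) and lists made equal within each chromosome (right). Chromosome 1 has 46.2% ES-only sites on the left and 29.8% on the right.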

How the data were processed

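Chromatin immunoprecipitation with Illumina sequencing was measured in 20 samples, of which 18 have a peak list and 12 lists were read here. The deposited lists hold 1 library each, with chromosome, start, end, a peak name with the MACS prefix, and a score. The score was deposited without a stated scale and was read as 10 times −log10 p, since the lowest value is 50. It was used for ranks within a list. The build is mm9 per the submitters' processing notes. Aligner and caller settings were not given in the sources used here. Starts were taken to count from 0 and are printed counting from 1.

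From the lists, peaks were ranked by score and matched by interval overlap. ES sites were merged intervals with a peak of both replicates. Regions named are among the 8 strongest of each class by mean rank, absence being judged on whole lists. Windows named are those past 2-fold, among them the 5 most extreme each way. A window on chromosome 14, and those of X below the minimum count, were added after their values were seen. Members, classes and tests were chosen with earlier results of these data known, and the look at other lists, at bins by rank and within windows was added after the data were seen. No gene names or sequences are given, because the tables used here belong to another build. Read depth was unknown. Matching was tested on simulated lists. Alternatives were other matching rules, list lengths, chromosome sets and single replicates. SciPy 1.17.1, pandas 2.3.3 and NumPy 2.4.6 ran under Python 3.11.15.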

Additional observations from a re-analysis of the deposited data

How the results depend on the processing

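The share of F9 peaks in both ES replicates (52.6%) was 31.2% with midpoints within 200 bp, 36.5% with the 5000 strongest peaks, 36.5% with whole lists, 53.5% with lists made equal within each chromosome, 53.9% without chromosomes 1, 4, 6, 12, 14 and X, and 58.6% to 63.4% with 1 ES replicate. The share in neither (30.7%) was 42.0%, 46.3%, 38.2%, 29.4%, 28.7% and 36.6% to 41.4% under these settings, and 17.4% with absence from whole lists. The share of ES sites without an F9 peak (29.0%) was 43.1%, 43.2%, 19.5%, 28.1%, 25.9% and 37.1% to 38.1%, 16.5% with absence from whole lists, and 21.0% for sites without Sox2 V5 peaks. The Sox2 difference (11.6 points) was 7.09, 0.32, 9.09, 12.02 and 13.9 under the same settings, 17.9 with absence from whole lists, and -1.95 to 6.65 with 1 ES replicate. The causes were not tested. Called chromosomes numbered 8 with the 5000 strongest peaks, against 4, and 3 to 4 otherwise. Overlap of 50% of the shorter interval moved no share beyond its interval. No paired analysis was possible because F9 cells have 1 library and the results come from no test over libraries. Depth was unknown and limits absence in the shorter ES list B.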

Other observations

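Sox17 of F9+RA cells, a regulator of primitive endoderm, here measured after RA, was found most often at those Oct4 sites of undifferentiated F9 cells that ES cells share. It lay at 44.8% of the F9 peaks shared with both ES replicates (exact 95% interval 44.1 to 45.5, background 6.92%), at 20.6% of F9-only peaks (19.8 to 21.4, background 8.74%) and at 11.2% of ES-only sites (10.5 to 11.98, background 3.62%). Shared F9 peaks had higher scores than F9-only peaks (medians of 339 and 174), and the part of strength in this order was not tested.

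F9-only peaks lay as near to shared sites as shared sites lay to each other, and ES-only sites lay farther away. The median distance from midpoint to the next shared midpoint was 18.7 kb for F9-only and 18.7 kb for shared F9 peaks. It was 33.8 kb for ES-only and 19.7 kb for shared ES sites. A shared site lay within 25 kb of 57.9% of F9-only and 56.9% of shared F9 peaks, and of 43.2% of ES-only and 55.7% of shared ES sites. No distances of moved sites are given here as a reference. Chromosomes 1 and 14, where F9 cells had fewer peaks, hold 21.8% of the ES-only sites. Chromosome 12 holds 9.51% of F9-only peaks, against 4.12% of shared F9 peaks. The part of these chromosomes in the distances was not tested.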
